A study of Rattus norvegicus with 6 samples.

Results

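The SMAD proteins and the SKI corepressors were followed in RNA-seq libraries of neonatal rat cardiac fibroblasts (NRCFs), which are primary cells isolated from Sprague-Dawley hearts within 3 days of birth (the strain is given as Noway in the labels). The 10 genes were fixed by name from the family, Smad1 to Smad7, Smad9, Ski and Skil, out of 21857 gene symbols in the count files. The control group, Vector (genotype WT), comprised 3 libraries of cells given the empty pcDNA plasmid, and the other group comprised 3 libraries labelled FTO overexpression, of cells given the same plasmid carrying rat FTO, an enzyme that removes the m6A mark from RNA. All cells were primary cultures, prepared with differential adhesion and no stated sort, and collected after transfection, and nothing states that the libraries of a group came from separate cultures, so the p-values measure only the spread between these libraries. The libraries held 13178952 to 17857999 counted reads.

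SMAD proteins carry the signal of the transforming growth factor-β (TGF-β) family from receptors at the cell surface to the nucleus. Receptor SMADs are phosphorylated by activated receptors, SMAD2 and SMAD3 mainly after TGF-β or activin and SMAD1, SMAD5 and SMAD9 mainly after bone morphogenetic proteins (BMPs), and they then join the common partner SMAD4 and enter the nucleus. SMAD6 and SMAD7 are inhibitory SMADs, which block the receptors and are themselves induced by the pathway, while SKI and SKIL (also called SnoN) bind SMAD complexes on DNA and repress transcription. In cardiac fibroblasts the SMAD2/3 arm is best known for driving collagen and myofibroblast genes. The counts measure mRNA and not phosphorylation, on which SMAD activity depends.

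The level of Fto was examined first, as a check of the labels. Fto was at 87.8, 89.6 and 87.4 CPM (counts scaled to the TMM-adjusted total of each library) in Vector and at 93.2, 90.8 and 92.9 CPM in the libraries labelled FTO. The groups did not overlap in CPM, as for 70.3% of all tested genes. The paper reports that transfection efficiency was checked by qRT-PCR and by FTO protein. In these counts a rise of Fto was not detected by edgeR (log2 fold change 0.06, SE 0.0468, adjusted p-value 0.239, 95% CI of the fold change 0.976 to 1.12). Directions below are therefore those of the libraries labelled FTO against Vector.

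Of the 10 genes, 9 were tested and 6 passed an adjusted p-value under 0.05. Smad3 and Smad1 were higher in the libraries labelled FTO, and Smad6, Smad7, Ski and Skil were lower. Smad2, Smad4 and Smad5 did not pass. Smad9 was left out by the filter on low counts. In bulk RNA, fewer cells of a type and less RNA per cell cannot be told apart. Of all 12941 tested genes 65.9% passed, 33.2% higher and 32.8% lower, so 6 of 9 is close to the background and is not particular to this family. Likewise 6 of the 9 genes had no overlap in CPM between the groups, against 70.3% of all tested genes. Smad3 and Smad6 also passed the threshold used by the study, a log2 fold change of at least 1 in either direction with an unadjusted p-value under 0.05, which 19.6% of all tested genes passed. The median log2 fold change was -0.15 over the 9 genes and 0.00 over all tested genes, and the median absolute change was 0.40 and 0.36.

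**Figure D1:**
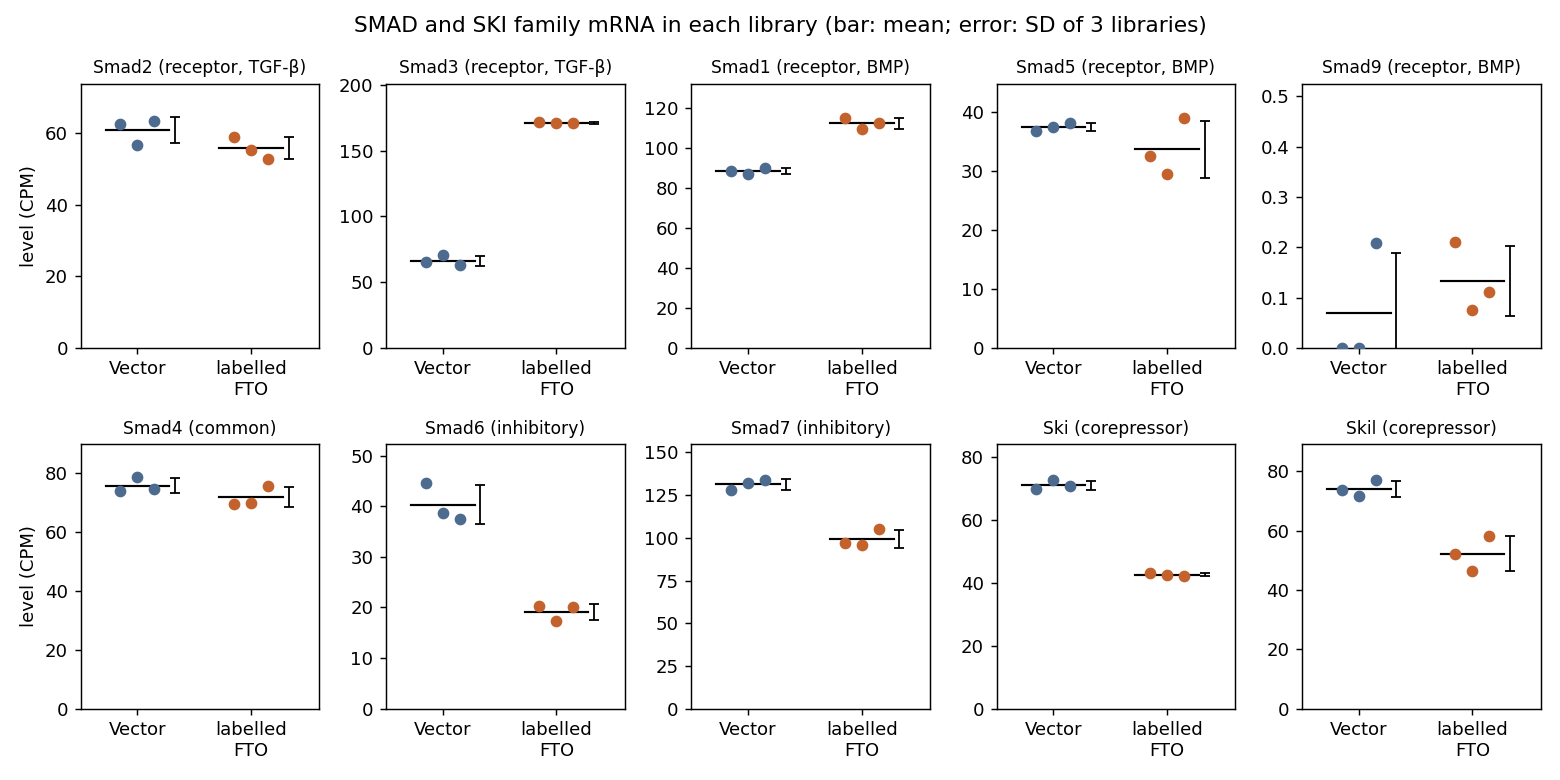
Level in CPM (vertical axis, linear from 0, a scale of its own for each gene) of the 10 genes in each of the 3 Vector libraries (blue points) and the 3 libraries labelled FTO (orange points), with the mean as a bar and the SD as an error bar. Smad3 sits at 63.1 to 70.5 CPM in Vector and at 171 to 172 CPM in the libraries labelled FTO, while Smad2, Smad4 and Smad5 overlap between the groups and Smad9 lies near 0.

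Among the receptor SMADs of the TGF-β arm, Smad3 rose and Smad2 did not pass the test. Smad3 was counted at 65.0, 70.5 and 63.1 CPM in the Vector libraries and at 172, 171 and 171 CPM in those labelled FTO. All 3 libraries labelled FTO lay far above all Vector libraries, and they differed from each other by less than the Vector libraries did. The mean rose from 66.2 ± 3.85 to 171 ± 0.626 CPM (SD, n = 3), a 2.58-fold increase with a 95% CI of 2.40 to 2.78 (log2 fold change 1.37, SE 0.0505, adjusted p-value 2.2e-12). In absolute size, 13.7% of all tested genes changed by more. Smad2 was at 62.6, 56.6 and 63.4 CPM in Vector and at 59.0, 55.3 and 52.9 CPM in the libraries labelled FTO. Vector replicate 2 fell within the range of the other group. Smad2 did not pass (log2 fold change -0.13, SE 0.0635, adjusted p-value 0.0884), and the 95% CI of its fold change ran from 0.833 to 1.01. The call of Smad2 hung on single libraries, as it passed without Vector replicate 2 (adjusted p-value 0.0386) and without FTO replicate 1 (0.0436). Its adjusted p-value lay between 0.0386 and 0.258 under the 13 alternatives.

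The count ratio of Smad3 to Smad2 within each library does not depend on how libraries are scaled. It was 1.04, 1.25 and 0.996 in Vector and 2.91, 3.09 and 3.23 in the libraries labelled FTO, a 2.82-fold difference. The groups did not overlap in this ratio. Its exact permutation p-value was 0.10 (two-sided), which is the smallest that 3 libraries against 3 can give.

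Smad1 and Smad5, receptor SMADs of the BMP arm, changed less than Smad3, though not less than Smad2. Smad1 was at 88.4, 87.1 and 89.9 CPM in Vector and at 115, 109 and 112 CPM in the libraries labelled FTO, without overlap. It rose 1.27-fold with a 95% CI of 1.18 to 1.36 (log2 fold change 0.34, SE 0.0468, adjusted p-value 1.1e-05). Smad5 was at 36.7, 37.4 and 38.0 CPM in Vector and at 32.5, 29.4 and 38.9 CPM in the libraries labelled FTO. FTO replicate 3, the deepest library, stood above every Vector library and FTO replicates 1 and 2 stood below them. Smad5 did not pass (log2 fold change -0.15, SE 0.0881, adjusted p-value 0.158, 95% CI of the fold change 0.793 to 1.03). Without FTO replicate 3 it passed (log2 fold change -0.28, adjusted p-value 0.00328), and its adjusted p-value lay between 0.00328 and 0.532 under the alternatives. Smad9, the third receptor SMAD of this arm, had 0, 0 and 3 counts in Vector and 3, 1 and 2 counts in the libraries labelled FTO. The floor, set at 3 counts, is equal to 0.168 to 0.227 CPM, so Smad9 was at or under the floor in every library and no fold change is given. Counting error alone sets these floors, and reads carried no molecular identifiers.

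Smad4, the common partner of both arms, was at 73.8, 78.4 and 74.4 CPM in Vector and at 69.4, 69.8 and 75.6 CPM in the libraries labelled FTO. FTO replicate 3 lay within the range of Vector. Smad4 did not pass (log2 fold change -0.08, SE 0.0549, adjusted p-value 0.237). The 95% CI of its fold change was 0.875 to 1.03.

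Both inhibitory SMADs were lower in the libraries labelled FTO. Smad6, which acts mainly on BMP signalling, was at 44.7, 38.6 and 37.5 CPM in Vector and at 20.2, 17.4 and 20.0 CPM in the libraries labelled FTO, without overlap. The mean decreased from 40.3 ± 3.86 to 19.2 ± 1.58 CPM (SD, n = 3), 2.09-fold lower with a 95% CI of 1.84 to 2.38 (log2 fold change -1.06, SE 0.0873, adjusted p-value 3.8e-08). Smad7, which blocks both arms and recruits SMURF ubiquitin ligases to the TGF-β receptors, was at 128, 132 and 134 CPM in Vector and at 96.9, 95.8 and 105 CPM in the libraries labelled FTO. These groups did not overlap either, although the step was smaller. The decrease of Smad7 was 1.32-fold with a 95% CI of 1.23 to 1.42 (log2 fold change -0.40, SE 0.0501, adjusted p-value 4.5e-06). Smad3 and Smad6 are next to each other in the rat genome, with 0 annotated protein-coding genes between them on chromosome 8 of the RefSeq GRCr8 assembly, and they were the 2 genes of the family with the largest changes, in opposite directions.

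Taken within each library, counts of Smad6 and Smad7 together came to 0.683, 0.678 and 0.674 of the counts of the 5 receptor SMADs in Vector and to 0.309, 0.310 and 0.334 in the libraries labelled FTO. This ratio was 2.14-fold lower. Counts of Smad2 plus Smad3 came to 1.02, 1.02 and 0.987 times those of Smad1, Smad5 and Smad9 in Vector and to 1.56, 1.63 and 1.48 times in the libraries labelled FTO. Counts grow with transcript length, so the size of a ratio cannot be read, only its difference between libraries. Where genes are summed, as in these ratios, longer transcripts weigh more, so that difference depends on length too. The ratio of Smad7 to Smad6 was 1.59-fold and that of Smad1 to Smad5 1.42-fold higher in the libraries labelled FTO. The groups did not overlap in any of the 6 ratios compared, and each gave the smallest possible exact permutation p-value of 0.10, also 0.10 after adjustment over the 6.

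**Figure D2:**
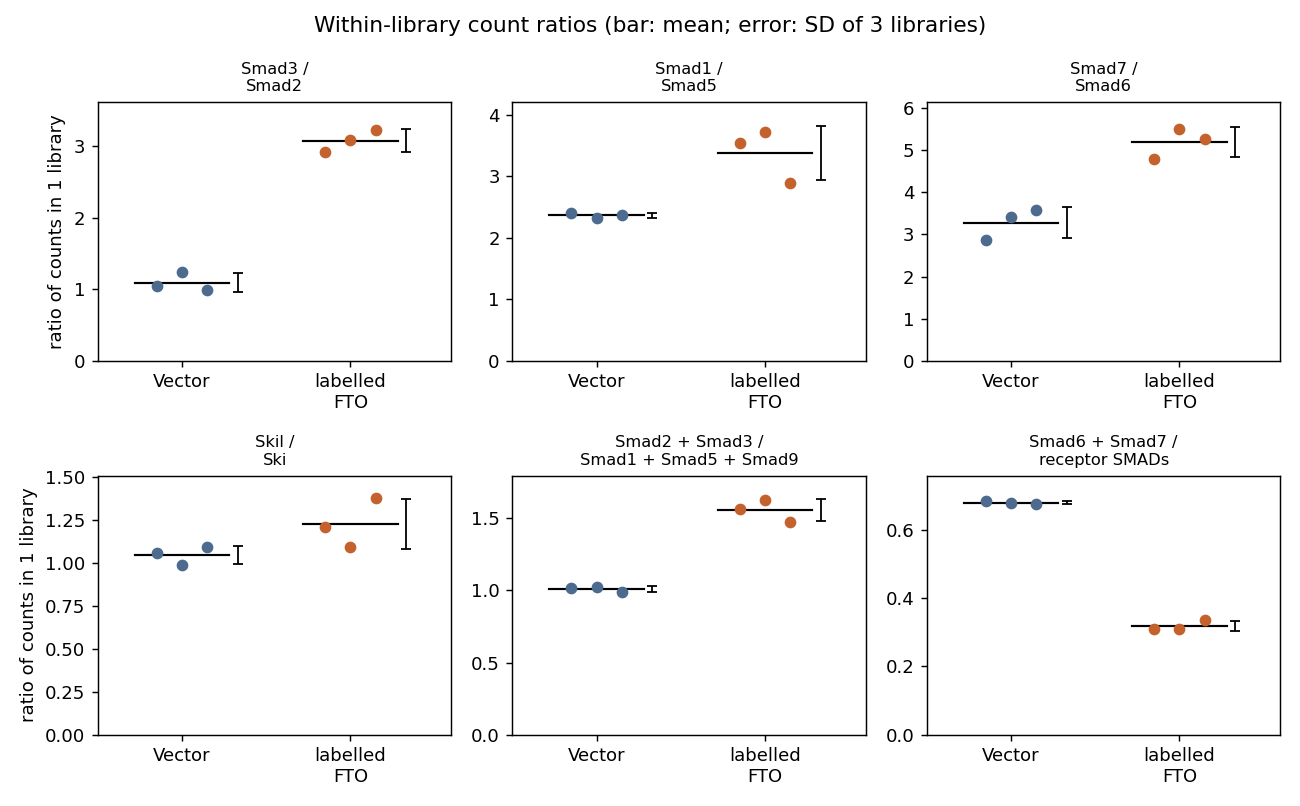
Ratios of raw counts within each library (vertical axes, linear from 0, no unit) for 6 pairs or groups of SMAD and SKI genes, as points for the 3 Vector libraries (blue) and the 3 libraries labelled FTO (orange) with the mean as a bar and the SD as an error bar. The ratio of inhibitory to receptor SMADs is near 0.678 in Vector and near 0.318 in the other group, and the ratio of Skil to Ski shows the smallest step.

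The SKI corepressors were lower as well. Ski was at 69.9, 72.6 and 70.7 CPM in Vector and at 43.1, 42.6 and 42.2 CPM in the libraries labelled FTO. The replicates were tight in both groups and far apart between them. Ski decreased 1.67-fold with a 95% CI of 1.54 to 1.81 (log2 fold change -0.74, SE 0.0540, adjusted p-value 9.6e-09). Skil, itself a gene that SMAD3 induces, was at 73.8, 71.7 and 77.0 CPM in Vector and at 52.2, 46.4 and 58.1 CPM in the libraries labelled FTO. The groups did not overlap, with a wider spread in the libraries labelled FTO. Skil decreased 1.41-fold with a 95% CI of 1.27 to 1.57 (log2 fold change -0.50, SE 0.0717, adjusted p-value 1.9e-05). The ratio of Skil to Ski was 1.06, 0.987 and 1.09 in Vector and 1.21, 1.09 and 1.38 in the libraries labelled FTO, so the groups only just separated.

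**Figure D3:**
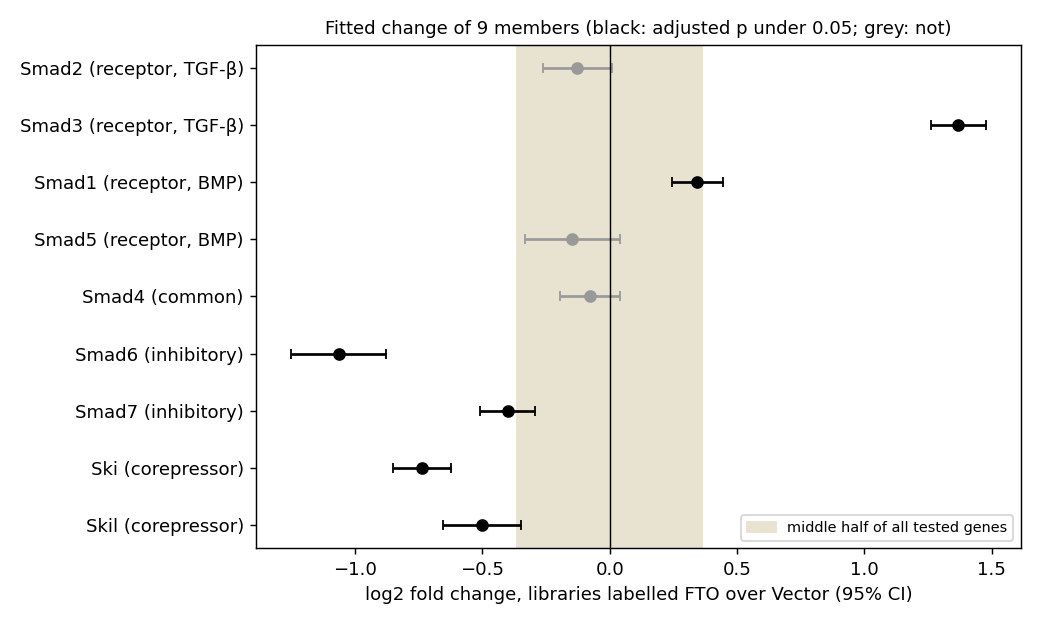
Log2 of the fold change, FTO-labelled over Vector, on the horizontal axis for the 9 tested genes, with the 95% confidence interval of the edgeR fit as a bar, black where the adjusted p-value was under 0.05 and grey where it was not. The shaded band spans the 25th to 75th percentile of all tested genes, -0.36 to 0.36, and Smad3 at 1.37 and Smad6 at -1.06 lie farthest outside it.

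Markers of the cell types the cultures could hold were read as well. Of all tested genes 65.9% passed, 33.2% higher and 32.8% lower, so the counts for each list are to be read beside these shares. All 9 fibroblast markers were detected and tested, of which 4 were higher and 5 lower, with a summed level of 40130 to 40765 CPM in Vector and 19822 to 20812 CPM in the other group. Most of that sum is collagen mRNA, as Col1a1 fell from 25809 ± 337 to 8268 ± 377 CPM and Col3a1 from 10699 ± 90.0 to 3338 ± 363 CPM (SD, n = 3, adjusted p-values 2.3e-14 and 1.7e-12). Vim fell too, from 3161 ± 104 to 1250 ± 72.8 CPM (SD, n = 3, adjusted p-value 9.6e-13). Ddr2 and Tcf21 fell by less, 1.42-fold and 1.33-fold (adjusted p-values 2.4e-05 and 3.5e-06). The 4 that were higher were Dcn, Lum, Pdgfra and Thy1. Dcn rose from 47.0 ± 1.57 to 5611 ± 221 CPM, Lum from 48.7 ± 2.36 to 432 ± 6.90 CPM and Pdgfra from 173 ± 5.02 to 976 ± 91.0 CPM (SD, n = 3, adjusted p-values 1.2e-19, 6.8e-17 and 1.3e-14). Thy1 rose 1.51-fold (adjusted p-value 6.6e-08). Of 10 macrophage markers 9 were lower and 1 higher, from 1594 to 1648 CPM in sum to 249 to 284 CPM, with C1qb and C1qc at or under the floor of 3 counts in each library labelled FTO. The list was not uniform, as Cd14 and Cd163 fell only 1.67-fold and 1.88-fold. Adgre1, the marker that was higher, rose from 6.81 ± 1.52 to 31.7 ± 3.64 CPM (SD, n = 3, adjusted p-value 8.4e-10). Of 7 tested cardiomyocyte markers 6 were higher and 1 lower (1668 to 1701 CPM against 2588 to 2667 CPM, although differential adhesion is meant to separate myocytes from fibroblasts), and of 6 tested mural markers 2 were higher and 4 lower (1504 to 1563 CPM against 844 to 945 CPM). Of 4 tested endothelial markers 3 were higher (19.3 to 19.8 CPM against 43.3 to 45.0 CPM, Cldn5 being at 0 counts in all libraries), and of 4 tested Schwann or neural markers 2 were lower (at least 10.7 CPM in Vector against 8.31 to 9.89 CPM). The part of these shifts in the SMAD and SKI values was not tested.

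The promoters of the family were read next, whether or not the gene passed, because SMAD7, SKIL and SMAD6 are known targets of SMADs. RefSeq (GRCr8) gave a window of 250 bases before to 50 bases after the start for 9 of the 10 genes, in 10 windows, with no entry used here for Smad6. Both words searched read the same on either strand, GTCTAGAC, the palindrome bound by SMAD3 and SMAD4, and GGCGCC, a GC-rich SMAD word. The palindrome was in 0 of the 10 windows and in 0.197% of 33469 rat promoter windows. The GC-rich word was in 6 of the 10 windows, those of Smad2 (both of its windows), Smad3, Smad7, Smad9 and Skil, against 11% of all windows. In the SMAD target lists described below it was in 3 of 11 windows for TGF-β/SMAD3 (27.3%, median GC 63.3%). For BMP/SMAD1/5 it was in 4 of 10 (40%, median GC 66%). The pair of Smad2 windows overlap and share 1 site, which is counted in both. The GC content of the windows had a median of 71.7% over the 10, with a range of 31.7% to 82.7%, against a median of 51.7% over all windows, so these windows were richer in G and C than most. The windows of Smad3, which rose, and of Smad7 and Skil, which fell, are shown because each holds the word and they moved in different directions, and that of Ski because it fell without the word. Capitals mark GGCGCC, and each run is 5′ to 3′ on the strand of the gene.
Smad3 (chr8:73132275-73132574, minus strand): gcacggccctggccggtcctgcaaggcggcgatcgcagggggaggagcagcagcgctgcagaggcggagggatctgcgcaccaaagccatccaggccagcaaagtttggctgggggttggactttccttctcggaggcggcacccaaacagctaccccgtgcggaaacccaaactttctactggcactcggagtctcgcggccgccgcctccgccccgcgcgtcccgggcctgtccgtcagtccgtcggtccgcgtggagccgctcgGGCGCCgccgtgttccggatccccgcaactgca
Smad7 (chr18:71263258-71263557, plus strand): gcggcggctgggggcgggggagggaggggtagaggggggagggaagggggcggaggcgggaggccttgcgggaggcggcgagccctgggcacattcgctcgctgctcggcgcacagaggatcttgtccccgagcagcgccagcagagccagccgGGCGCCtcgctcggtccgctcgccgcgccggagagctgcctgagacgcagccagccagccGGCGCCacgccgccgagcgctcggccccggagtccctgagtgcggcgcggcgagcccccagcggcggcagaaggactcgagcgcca
Skil (chr2:114203523-114203822, minus strand): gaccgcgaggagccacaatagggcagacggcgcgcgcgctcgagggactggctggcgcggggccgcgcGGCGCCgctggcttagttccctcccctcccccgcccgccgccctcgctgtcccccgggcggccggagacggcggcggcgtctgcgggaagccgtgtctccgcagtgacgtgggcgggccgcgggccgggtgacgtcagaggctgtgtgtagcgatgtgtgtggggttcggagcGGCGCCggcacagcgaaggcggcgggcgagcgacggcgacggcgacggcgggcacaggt
Ski (chr5:171064908-171065207, minus strand): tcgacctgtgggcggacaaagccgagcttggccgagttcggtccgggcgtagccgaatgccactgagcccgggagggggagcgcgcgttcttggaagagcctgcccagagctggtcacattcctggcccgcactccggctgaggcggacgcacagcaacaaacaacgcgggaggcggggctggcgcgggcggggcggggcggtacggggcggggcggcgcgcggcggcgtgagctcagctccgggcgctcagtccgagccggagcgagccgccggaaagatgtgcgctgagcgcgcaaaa
In Smad7 the word began 96 and 36 bases before the start, in Skil 182 and 9 bases before it, and in Smad3 at base 18 after it. The word was thus found in genes that rose, that fell and that did not pass the test, Smad2 among the last.

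The receptors upstream of the SMADs were described from a list of 13 genes, of which 11 were tested. Of these 7 were higher and 2 lower, with a median log2 fold change of 0.25, against 33.2% higher, 32.8% lower and a median of 0.00 over all tested genes. Tgfbr3 (betaglycan, a co-receptor that presents TGF-β) rose from 42.3 ± 3.32 to 309 ± 33.5 CPM, 7.31-fold, and Acvr1b (ALK4, an activin receptor that phosphorylates SMAD2 and SMAD3) from 49.8 ± 1.06 to 246 ± 8.19 CPM, 4.94-fold (SD, n = 3, adjusted p-values 4.4e-14 and 2.1e-15). In contrast, Tgfbr1 (ALK5, the kinase that phosphorylates SMAD2 and SMAD3 after TGF-β) fell from 98.6 ± 5.94 to 49.2 ± 3.61 CPM, and Acvr1 (ALK2, a BMP-type receptor) from 64.0 ± 1.33 to 42.7 ± 2.14 CPM (SD, n = 3, 95% CI of the fold changes 0.455 to 0.550 and 0.610 to 0.727), with adjusted p-values of 2.0e-09 and 3.9e-07. Acvr1b and Tgfbr1, both kinases for SMAD2 and SMAD3, thus changed in opposite directions, while Acvr1c (ALK7), another such kinase, was at 0 counts in all libraries.

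A list of 8 SMAD anchors and receptor-level brakes had 6 genes lower and 0 higher, with a median of -0.25. Of all tested genes 65.9% passed, so the number that passed in either direction is near the background. The 6 that passed were all lower, against 32.8% lower and 33.2% higher among all tested genes. This direction rests on 8 genes and was not tested as a set. Pmepa1, which keeps SMAD2 and SMAD3 from the receptor and is induced by TGF-β, was at 324, 331 and 348 CPM in Vector and at 80.2, 92.2 and 80.5 CPM in the libraries labelled FTO. It decreased 3.97-fold (log2 fold change -1.99, SE 0.0560, adjusted p-value 7.8e-14). Bambi, a decoy receptor without a kinase, decreased 1.93-fold from 21.5 ± 1.80 to 11.2 ± 1.69 CPM (SD, n = 3, adjusted p-value 3.0e-06). Without Vector replicate 2, 3 of the 8 were lower.

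Among 17 tested genes for SMAD turnover and dephosphorylation, 7 were lower, 2 higher and 8 did not pass, with a median of -0.03. This is no more than the background, in which 65.9% passed. Nedd4l, a ubiquitin ligase for activated SMAD2 and SMAD3, decreased 2.34-fold from 43.0 ± 2.58 to 18.3 ± 1.94 CPM, and Smurf1, a ligase that binds SMAD7 and also marks SMAD1 and SMAD5, 1.96-fold from 125 ± 5.02 to 64.0 ± 3.46 CPM (SD, n = 3, adjusted p-values 4.8e-09 and 4.0e-10). The 2 that were higher moved little. Usp4, a deubiquitinase of the TGF-β type I receptor, rose 1.16-fold (adjusted p-value 0.00176), and Rnf111 (Arkadia, the ligase that destroys SMAD7, SKI and SKIL) rose 1.14-fold from 65.5 ± 2.24 to 74.4 ± 2.86 CPM (SD, n = 3, adjusted p-value 0.00751).

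Of 17 tested nuclear partners of the SMADs, 7 were lower, 3 higher and 7 did not pass, with a median of -0.11, against 32.8% lower and 33.2% higher among all tested genes. Tgif1, another corepressor of SMAD2 and SMAD3, went the opposite way to Ski and Skil. It was at 67.2, 67.8 and 69.0 CPM in Vector and at 164, 158 and 153 CPM in the libraries labelled FTO, a 2.33-fold rise (log2 fold change 1.22, SE 0.0477, adjusted p-value 4.4e-12). Runx1, a transcription factor that binds SMADs, decreased 2.06-fold from 50.4 ± 1.15 to 24.4 ± 1.83 CPM (SD, n = 3, adjusted p-value 3.2e-09). Zeb2, a SMAD-binding repressor, was 1.13-fold higher with an adjusted p-value of 0.0447, but the groups overlapped. The call of Zeb2 was lost without Vector replicate 1 (0.177), Vector replicate 2 (0.106), FTO replicate 1 (0.0999) or FTO replicate 3 (0.252), and its adjusted p-value lay between 3.9e-04 and 0.252 under the alternatives.

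Among genes known to be induced through TGF-β and SMAD3, 11 of 15 tested were lower, 3 higher and 1 did not pass, with a median of -0.71, where 32.8% of all tested genes were lower, 33.2% higher and the median was 0.00. Tagln and Acta2, smooth-muscle genes of the myofibroblast, decreased from 2819 ± 58.7 to 194 ± 7.13 CPM and from 5716 ± 65.1 to 485 ± 8.03 CPM, 14.5-fold and 11.8-fold (SD, n = 3, adjusted p-values 3.0e-18 and 2.3e-18). Acta2 shares sequence with the other actins, Pmepa1 and Ldlrad4 stand both on this list and on that of the brakes, and Col1a1 is also a fibroblast marker. The mural markers Myh11 and Notch3 decreased by a like amount, 11.5-fold and 15.0-fold, and Cspg4 and Pdgfrb by less, while Kcnj8 and Abcc9 rose. A mural part in the decrease of Tagln and Acta2 was not tested. Junb, a subunit of the AP-1 factor, rose 1.71-fold and Cdkn2b, a cell cycle inhibitor, 1.66-fold, with adjusted p-values of 1.2e-08 and 1.6e-08. Among 10 tested genes known to be induced through BMP and SMAD1/5, 4 were higher, 3 lower and 3 did not pass, with a median of 0.09, shares that are near the 33.2% and 32.8% of all tested genes. Id1, an inhibitor of helix-loop-helix factors, rose from 54.3 ± 2.15 to 109 ± 2.16 CPM (SD, n = 3, 95% CI of the fold change 1.86 to 2.16, adjusted p-value 1.3e-10). Nog, which encodes the BMP antagonist noggin, rose from 1.01 ± 0.339 to 3.42 ± 0.603 CPM on a mean of 33.2 counts (SD, n = 3, adjusted p-value 3.6e-05). Bambi, on this list too, and Atoh8, a helix-loop-helix factor that was 1.25-fold lower (adjusted p-value 7.9e-04), had the largest decreases.

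**Figure D4:**
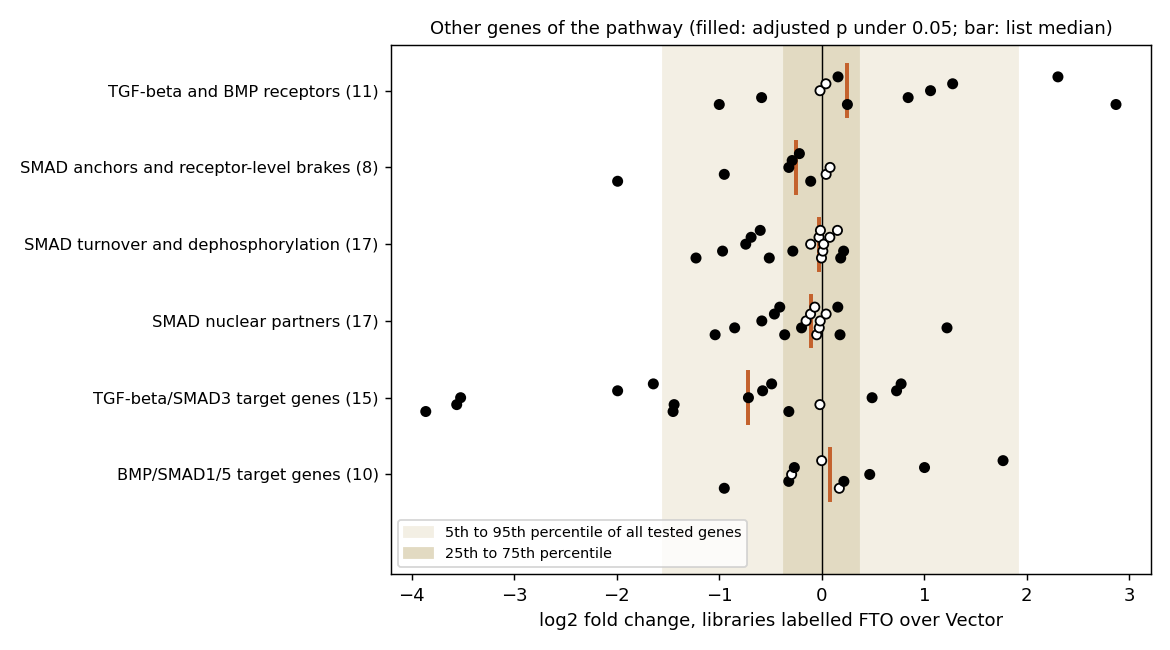
Log2 of the fold change, FTO-labelled over Vector, on the horizontal axis for each tested gene of 6 lists around the SMADs (number of genes in brackets), filled where the adjusted p-value was under 0.05 and open where not, with the list median as an orange bar. The shaded bands give the 5th to 95th percentile (-1.55 to 1.91) and the 25th to 75th percentile of all tested genes, and the TGF-β/SMAD3 targets reach down to -3.86.

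The genes whose profile over the 6 libraries was most like that of Smad3 were Dpy19l1, Icoslg and Vasn, with root mean square differences of 0.0338, 0.0350 and 0.0373 in mean-centred log2(CPM + 1). Dpy19l1 rose from 154 ± 4.52 to 406 ± 10.7 CPM, Icoslg from 13.2 ± 0.582 to 33.9 ± 0.0997 CPM and Vasn from 74.3 ± 4.30 to 188 ± 6.04 CPM (SD, n = 3). The 6 libraries fall into 2 groups, so likeness here is mostly likeness of the group difference.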

How the data were processed

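RNA-seq was done on NRCFs after transfection, with libraries made by an NEBNext Ultra kit. The values deposited by the authors are raw counts, given as whole numbers for each gene symbol. The submitters' processing notes name Trimmomatic and the genome build rn6, while the aligner, counter, annotation and use of strand are not given in the sources used here. SMAD paralogs share sequence, so their counts depend on how multi-mapping reads were treated.

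Genes were filtered with filterByExpr (minimum count 10), scaled with TMM factors (0.995 to 1.01) and compared by the two-sided quasi-likelihood test of edgeR 4.0.16 in R 4.3.3, with Benjamini-Hochberg adjustment over all 12941 genes tested. Each SE is the log2 fold change divided by the square root of its F statistic. The procedure was tested on simulated counts, where it recovered 77 of 99 genes changed 1.5-fold and 93 of 100 changed 2-fold. In that simulation 6 unchanged genes were called. Far fewer genes were changed in it than passed here, so it does not measure error rates in these data. Ratios of counts were compared by exact permutation. Alternatives were DESeq2 1.42.0, limma-voom (limma 3.58.1), DESeq2 size factors, library size alone, no filter, a mean of at least 10 counts, the replicate number as a block and leaving out each library.

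The members and lists were chosen with earlier results of these data known. Named genes were the members, Fto, the 2 largest changes in each direction among the genes of each list that passed, and the 3 profiles nearest to Smad3. Of these, 1 gene that this rule names is not reported here. Replicates were separate libraries. Between them, the chi-square per degree of freedom was 1.56 to 2.12 in Vector and 3.26 to 8.02 in the group labelled FTO. This value cannot show whether the cultures were separate.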

Additional observations from a re-analysis of the deposited data

How the results depend on the processing

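Under 13 alternatives, the directions and calls of Smad1, Smad3, Smad6, Smad7, Ski and Skil held, with log2 fold changes of 0.32 to 0.36, 1.33 to 1.41, -1.12 to -0.99, -0.45 to -0.37, -0.75 to -0.72 and -0.59 to -0.42. Smad4 did not pass in any of them (-0.12 to -0.05), and neither did Fto (0.05 to 0.08). Smad2 and Smad5 passed when single libraries were left out, as given above, and Zeb2 lost its call. None of the log2 fold changes of these genes changed sign under the 13, nor did any of the 6 ratios under the 7 run for them (the block and each library left out). When each library was left out in turn, 2 family members were higher and 4 to 5 lower, and 7902 to 8719 genes passed the adjusted threshold, with 2616 to 2703 past that of the study. The number of brakes and anchors that were lower ran from 3 to 6, with 3 without Vector replicate 2. The cause was not tested. The replicate numbers did not pair the libraries, as deviations from the group means correlated at 0.00628, -0.0869 and 0.0440 for the same numbers. In a fit with a replicate block, 8399 genes passed, and 2 family members were higher and 4 lower. DESeq2 called 7795 genes and no filter 9009. Without a scaling factor the median of all genes moved from 0.00 to 0.01. Depth limits Smad9, which stayed at or under the floor.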
